A study of Rhodotorula toruloides with 2 samples.

Results

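Among the 1402 genes in the table that the authors deposited for phosphate-limited and phosphate-replete chemostat cultures of the red yeast Rhodotorula toruloides, 41 genes are annotated with DNA replication, DNA repair, histones or the cell cycle. They were found by a set of search words in the KEGG description of each gene (for example DNA polymerase, minichromosome, histone H, kinetochore, cyclin and cell division), with the phosphate regulator PHO81 left out. The table holds only genes that passed the authors' thresholds of about a 2-fold ratio and a low false discovery rate (FDR), so these 41 are not all replication and cell cycle genes of the yeast, and each of them differed between the libraries by the way it was chosen. Genes not in the table are not analysed here.

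Wild-type cells of strain AS 2.1389 were grown in a stirred tank reactor at a working volume of 2.0 litre, and a 40 ml sample of culture was taken for RNA in each condition. The study has 1 RNA-seq library labelled Pi-limited and 1 labelled Pi-replete, where Pi is inorganic phosphate, and both come from the same wild-type strain. Dividing the deposited counts by length and RPKM gave library totals of 5892590 and 5641377 counts in that order. With 1 library per condition the spread between cultures was not measured, no difference has a replicate check, and every interval below is an exact 95% interval that covers counting error only. Nothing in the sources used here gives the growth or dilution rate of either culture.

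Transcripts that fungi are known to induce on phosphate shortage ran against the labels. A sodium:Pi symporter (RHTO_01284) had 22 counts under the Pi-limited label and 5797 under the Pi-replete label, and 2 Pi transporters of the PHS family (RHTO_06822 and RHTO_01549) had 31 against 1620 and 23 against 750 counts. The submitters' short code for the library labelled Pi-limited contains the word control. Directions below follow the label that each library carries. Whether the labels were exchanged was not tested, and an exchange would turn every direction given here.

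Dividing cells copy their DNA once per cycle. Before S phase, licensing factors load the MCM helicase onto origins. In S phase, ribonucleotide reductase supplies deoxynucleotides, polymerases held by a sliding clamp copy both strands, and new histones package the product. Condensin and kinetochores then prepare chromosomes for segregation, and cyclins with their kinases (cyclin-dependent kinases, CDKs) time these steps. Transcripts of many of these genes are known to peak in a part of the cycle in yeasts, so in a bulk culture a larger share of cells in that part and more transcript per cell cannot be told apart.

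Of the 41 genes, 37 were at least 2-fold higher and 4 at least 2-fold lower in the library labelled Pi-limited. That is 90.2% higher, beside 58.3% of all listed genes, and 41.7% of all listed genes were lower. The median log2 ratio (labelled Pi-limited over labelled Pi-replete) was 1.31, beside 1.10 over all listed genes. Both medians depend on the share of genes that were higher. Among higher genes only, the median was 1.33 for the 37 genes, below the 1.45 of all listed higher genes. Of the 37 higher genes, 18 (48.6%) lay under 2.5-fold, beside 38.7% of all listed higher genes, 14 lay between 2.5- and 4-fold, and 5 were at least 4-fold higher. Those 5 are 12.2% of the 41 genes, near the 14.1% of all listed genes that were at least 4-fold higher, and 1 gene was at least 4-fold lower, beside 19.8% of all listed genes.

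Scaling changes this split. Centring on the median of all listed genes shifts every log2 ratio by -1.10. It leaves 4 of the 41 genes at least 2-fold higher and 4 at least 2-fold lower. Over all listed genes, 13.0% were then at least 2-fold higher and 41.7% at least 2-fold lower. By construction, that centring puts as many listed genes above 0 as below it. With it 32 of the 41 genes stayed above 0. The 5 of the 37 higher genes that turned negative were PCNA, DNA2, RAD54, NNF1 and the cyclin RHTO_02011. Because genes under 2-fold are not in the table, neither split shows how an unfiltered table would divide. The plot of all ratios shows both distributions.

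**Figure D1:**
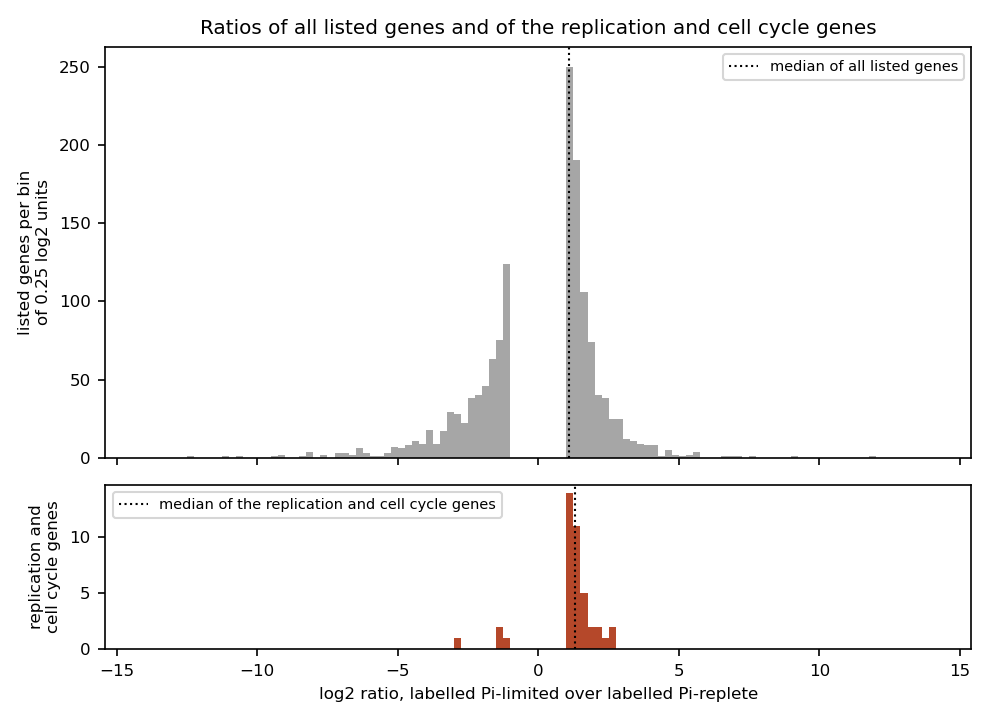
Number of genes (vertical axes) by log2 ratio, labelled Pi-limited over labelled Pi-replete (horizontal axis), in bins of 0.25 log2 units, for all 1402 listed genes (top) and the 41 replication, repair, histone and cell cycle genes (bottom), with dotted lines at the medians of 1.10 and 1.31. The gap around 0 is the authors' 2-fold filter. In the lower panel 37 genes lie to the right of it and 4 to the left, a split that becomes 32 above and 9 below 0 after median centring. All listed genes then split evenly around 0 by construction.

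The small subunit of ribonucleotide reductase (RHTO_01070), part of the enzyme that reduces ribonucleotides to deoxyribonucleotides, had 3917 counts under the Pi-limited label and 591 under the Pi-replete label. In RPKM, which divides counts by gene length and library total, this was 543 against 85.6. It was 6.35-fold higher under the Pi-limited label (5.82 to 6.93), the largest fold among those of the 37 higher genes whose best hit does not point to another function. No other deoxynucleotide enzyme was among the 41 genes.

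All 5 genes of origin licensing and the replicative helicase were higher under the Pi-limited label. All 5 stayed above 0 after median centring, though MCM4 and MCM7 only just (0.01 and 0.02 on the log2 scale). MCM5 (RHTO_07832), a subunit of the hexameric helicase, had 1053 and 362 counts (80.2 and 28.8 RPKM) and was 2.78-fold higher (2.47 to 3.15). MCM7 (RHTO_02958) had 1078 and 475 counts and was 2.17-fold higher (1.95 to 2.43), and MCM4 (RHTO_01781) had 899 and 399 counts and was 2.16-fold higher (1.92 to 2.43). The interval of MCM5 did not overlap those of its partners. Per length, MCM7 exceeded MCM4 by a like factor in both libraries (1.67 and 1.66), whereas MCM5 exceeded MCM4 1.69-fold under the Pi-limited label and 1.31-fold under the Pi-replete label.

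CDC6 (RHTO_07945), which loads the helicase onto origins, had 222 and 86 counts and was 2.47-fold higher (1.92 to 3.21). CDC45 (RHTO_04160), which joins the helicase when it is activated, had 358 and 139 counts and was 2.47-fold higher (2.02 to 3.02). Both genes thus had the same fold within their counting error, and their intervals overlapped that of each MCM gene.

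Among the 41 genes, 5 act as polymerases, clamp or fragment-processing enzymes at the replication fork, and all 5 were higher under the Pi-limited label. With median centring PCNA and DNA2 turned negative (-0.08 and -0.02 on the log2 scale), and subunit 2 of DNA polymerase epsilon lay at 0.004. Subunit B of DNA polymerase alpha (RHTO_05923), which with primase starts new strands, had 470 and 131 counts (44.3 and 12.9 RPKM) and was 3.43-fold higher (2.82 to 4.20). The catalytic subunit of DNA polymerase epsilon (RHTO_01448), which copies the leading strand in yeasts, had 669 and 254 counts and was 2.52-fold higher (2.18 to 2.93). Its partner, subunit 2 (RHTO_04040), had 222 and 99 counts and was 2.15-fold higher (1.69 to 2.75), with overlapping intervals.

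The sliding clamp PCNA (RHTO_05685) had 867 and 409 counts and was 2.03-fold higher (1.80 to 2.29), an interval that lay below that of the polymerase alpha subunit. In level it was the highest gene outside the histones and ribonucleotide reductase, with 125 RPKM under the Pi-limited label and 61.8 under the Pi-replete label. The helicase and nuclease DNA2 (RHTO_01437), which trims Okazaki fragments, was among the lowest, with 5.82 and 2.76 RPKM from 139 and 63 counts (2.11-fold, 1.56 to 2.89). These 5 fork genes spanned 5.82 to 125 RPKM under the Pi-limited label and 2.03- to 3.43-fold in ratio. The authors' 2-fold filter bounds the lower end of that range of ratios.

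**Figure D2:**
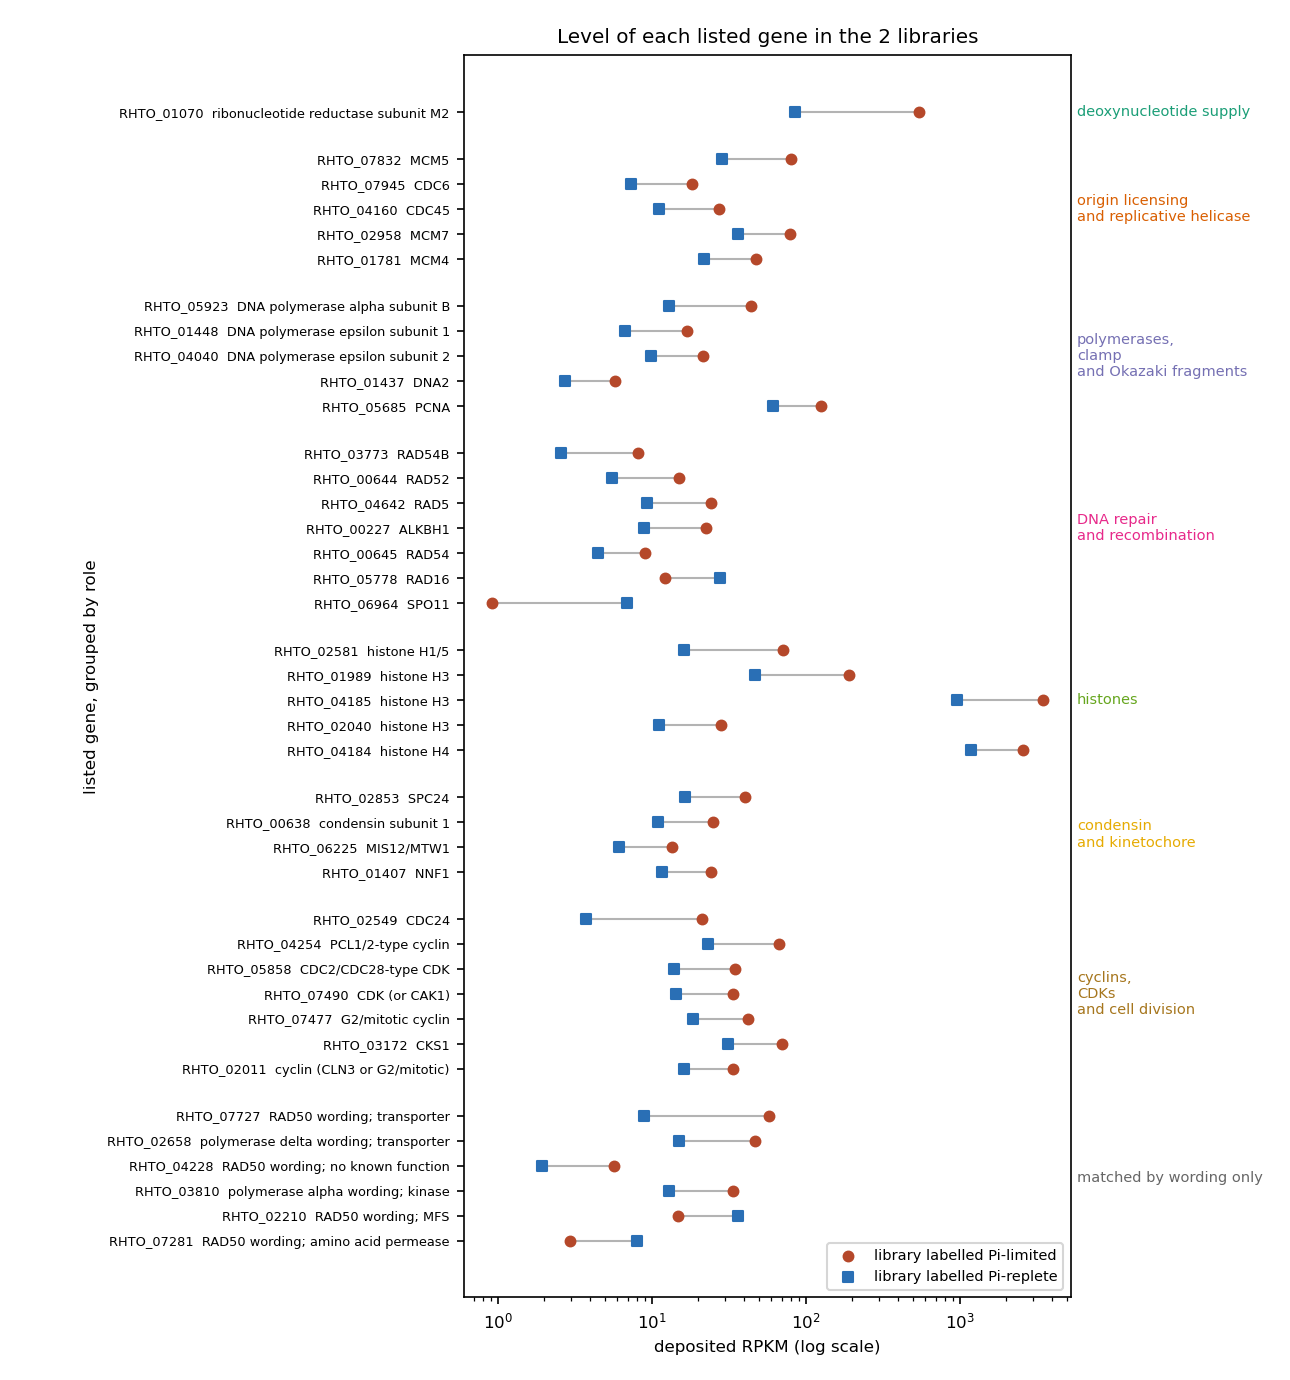
Deposited RPKM (horizontal log axis) of 40 of the 41 genes, grouped by role, with circles for the library labelled Pi-limited and squares for the library labelled Pi-replete. Histone H3 (RHTO_04185) and H4 stand above every other gene in both libraries, and the circle lies left of the square for 4 genes: RAD16, SPO11, RHTO_02210 and RHTO_07281.

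The 41 genes include 8 of DNA repair and recombination, of which 6 were higher and 2 lower under the Pi-limited label, with RAD54 turning negative after median centring (-0.10). Genes of homologous recombination were among the higher ones. RAD52 (RHTO_00644), which anneals DNA strands in recombination, had 174 and 61 counts and was 2.73-fold higher (2.03 to 3.72). RAD54 (RHTO_00645), a motor protein of the same pathway, had 136 and 65 counts and was 2.00-fold higher (1.48 to 2.74), at the edge of the authors' filter. A relative described as RAD54B (RHTO_03773) had 184 and 56 counts and was 3.15-fold higher (2.32 to 4.32). The intervals of these 3 genes overlapped.

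RAD5 (RHTO_04642), which acts in tolerance of DNA damage at stalled forks, had 499 and 182 counts and was 2.62-fold higher (2.21 to 3.13). A gene described as the alkylation repair protein alkB homolog 1 (RHTO_00227) had 167 and 63 counts and was 2.54-fold higher (1.89 to 3.45). These values lie within the range of the recombination genes.

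Both lower repair genes act outside replication in S. cerevisiae. SPO11 (RHTO_06964), which makes the DNA breaks that start meiotic recombination, had 12 counts under the Pi-limited label and 86 under the Pi-replete label, or 0.920 and 6.89 RPKM. Its level was 7.49 times as high under the Pi-replete label (4.07 to 15.0). RAD16 (RHTO_05778), known for nucleotide excision repair of silent chromatin, had 224 and 485 counts and was 2.26-fold higher under the same label (1.93 to 2.66).

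No H2A or H2B gene was among the 5 histone genes that the search words found, so those core histones are not covered here. All 5 found genes were higher under the Pi-limited label and stayed above 0 after median centring, though H4 only just (0.01 on the log2 scale). Together they took 0.232% of all counts there (0.228 to 0.236) and 0.0787% under the Pi-replete label (0.0764 to 0.0810), a 2.95-fold difference (2.85 to 3.05). A histone H3 (RHTO_04185) and the histone H4 (RHTO_04184), core proteins of the nucleosome, made up nearly all of this. H3 had 8440 and 2222 counts (3484.9 and 958 RPKM) and was 3.64-fold higher (3.47 to 3.81). H4 had 4728 and 2092 counts (2579.9 and 1192.4 RPKM) and was 2.16-fold higher (2.05 to 2.28).

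The intervals of H3 and H4 lay far apart. Per length, the H3 transcript was 1.35 times the H4 transcript under the Pi-limited label and 0.804 times under the Pi-replete label, so the order of the pair differed between the libraries. The H4 length in the table, 311 bases, is not a multiple of 3, so it may not be a whole coding length, and these ratios depend on it. These genes lie next to each other in the reference gene order of strain NP11, and their annotated spans do not overlap.

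The other histone genes found, which include no H2A or H2B gene, were expressed at far lower levels. A gene described as histone H1/5 (RHTO_02581), the linker histone, had 275 and 60 counts (71.4 and 16.3 RPKM) and was 4.39-fold higher (3.31 to 5.90). A second H3 gene (RHTO_01989), with a length of only 143 bases in the table, had 161 and 38 counts and was 4.06-fold higher (2.83 to 5.94). The third (RHTO_02040) had 71 and 27 counts (28.3 and 11.2 RPKM) and was 2.52-fold higher (1.60 to 4.08). Reads of near-identical H3 copies could be split or shared between these genes, which was not tested because no sequences were compared.

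Condensin and the kinetochore contributed 4 genes, all higher under the Pi-limited label at 2.07- to 2.44-fold, with NNF1 turning negative after median centring (-0.05). Condensin subunit 1 (RHTO_00638), part of the ring complex that compacts mitotic chromosomes, had 599 and 251 counts and was 2.28-fold higher (1.97 to 2.66). The kinetochore proteins link centromeres to spindle microtubules. SPC24 (RHTO_02853), of the outer Ndc80 complex, had 148 and 58 counts and was 2.44-fold higher (1.79 to 3.37). MIS12/MTW1 (RHTO_06225) and NNF1 (RHTO_01407), which belong to the same inner complex in yeasts, had 69 against 30 and 91 against 42 counts and were 2.20-fold (1.42 to 3.50) and 2.07-fold (1.42 to 3.07) higher. The intervals of all 4 genes overlapped.

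Cyclins, their kinases and other cell division genes gave 7 of 7 higher under the Pi-limited label, with the cyclin RHTO_02011 turning negative after median centring (-0.05). The gene with the largest fold was the one described as cell division control protein 24 (RHTO_02549), with 507 and 86 counts (21.2 and 3.76 RPKM), 5.64-fold higher (4.48 to 7.18). In S. cerevisiae the protein of this name activates the GTPase Cdc42 in bud site growth and polarity, rather than replication. Its interval did not overlap that of any other gene in the group.

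A cyclin described as the G1/S cyclins PLC1 and PLC2 by KEGG and as Pcl1 by its best hit (RHTO_04254) had 510 and 169 counts and was 2.89-fold higher (2.42 to 3.46). In S. cerevisiae the Pcl cyclins are partners of Pho85, a kinase that also acts in the phosphate response. A G2/mitotic cyclin (RHTO_07477), which drives entry into mitosis, had 455 and 192 counts and was 2.27-fold higher (1.91 to 2.70). Another cyclin (RHTO_02011), described both as mitotic and as the G1 cyclin CLN3, had 308 and 143 counts and was 2.06-fold higher (1.69 to 2.53).

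A cyclin-dependent kinase (RHTO_05858), whose best hit is cell division control protein 2, had 267 and 103 counts and was 2.48-fold higher (1.97 to 3.15). A second kinase (RHTO_07490), described both as a CDK and as the CDK-activating kinase CAK1, had 243 and 100 counts and was 2.33-fold higher (1.84 to 2.97). CKS1 (RHTO_03172), a small subunit that binds the kinase, had 128 and 55 counts and was 2.23-fold higher (1.61 to 3.11). The intervals of both kinases, CKS1, RHTO_07477 and RHTO_02011 all overlapped.

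**Figure D3:**
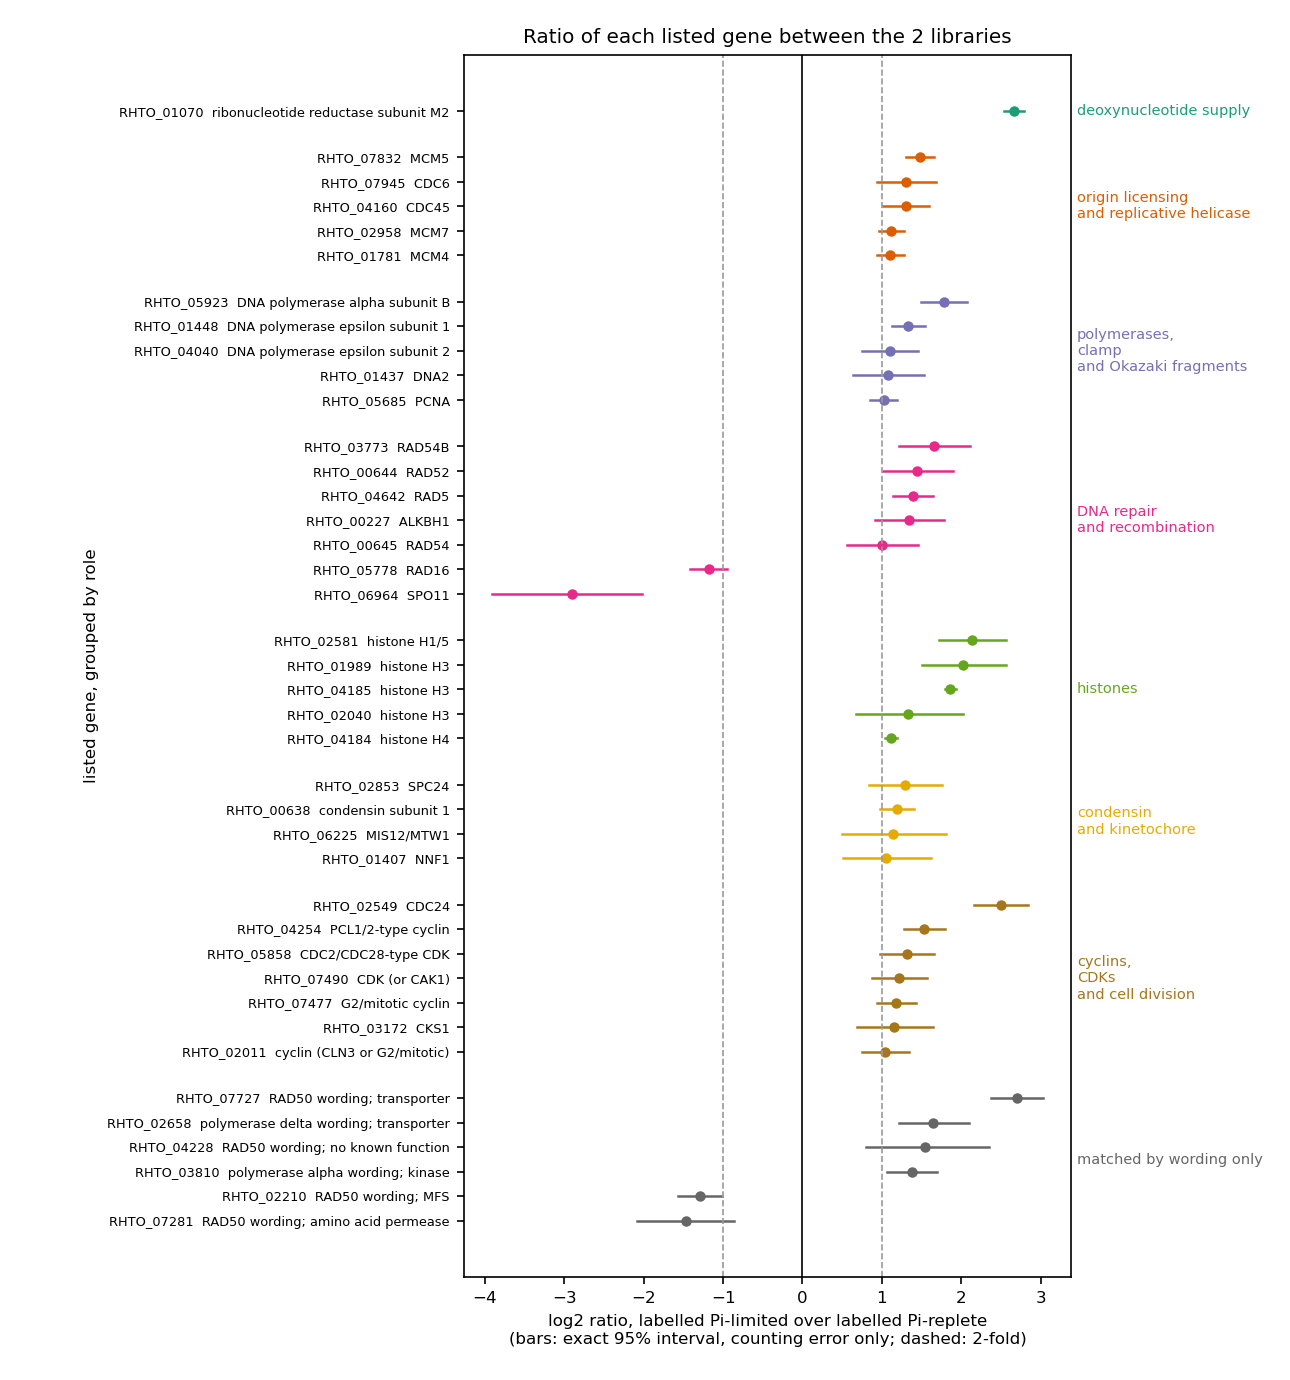
Log2 ratio, labelled Pi-limited over labelled Pi-replete (horizontal axis), of 40 of the 41 genes grouped by role, with exact 95% intervals that cover counting error only. Dashed lines mark a 2-fold ratio. The intervals of 19 of the 36 higher genes shown reach below 2-fold. None of the intervals reaches 0, which largely follows from the authors' thresholds on these same counts. Median centring would move every point left by 1.10 and turn 5 higher genes negative.

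The remaining 6 genes matched the search words in ways that their other descriptions do not bear out. Of these, 4 carry the KEGG names phosphoribosylformylglycinamidine synthase, RAD50 and splicing factor 1 together. The best hit is a transporter for RHTO_07727, a major facilitator protein for RHTO_02210 and an amino acid permease for RHTO_07281, and RHTO_04228 has no informative best hit. RHTO_07727 had 617 and 91 counts and was 6.49-fold higher under the Pi-limited label (5.20 to 8.18). RHTO_04228 had 61 and 20 counts and was 2.92-fold higher (1.74 to 5.11). In the other direction, RHTO_02210 had 156 and 364 counts and RHTO_07281 had 33 and 87 counts, 2.44-fold (2.01 to 2.96) and 2.75-fold (1.83 to 4.25) higher under the Pi-replete label.

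A gene described as DNA polymerase delta subunit 2 (RHTO_02658) has a drug and metabolite transporter as best hit, with 190 and 58 counts (3.14-fold higher under the Pi-limited label, 2.33 to 4.28). One described as DNA polymerase alpha subunit A (RHTO_03810) is also described as a phosphomethylpyrimidine kinase, with 323 and 119 counts (2.60-fold higher, 2.10 to 3.23). Without these 6 genes, 33 of 35 were higher, with a median log2 ratio of 1.30, and the 2 lower genes were SPO11 and RAD16.

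In summed counts, the 41 genes took 0.506% of all counts under the Pi-limited label (0.500 to 0.512) and 0.185% under the Pi-replete label (0.182 to 0.189), a 2.73-fold difference (2.67 to 2.79). All 1402 listed genes together went the other way, with 13.3% of all counts under the Pi-limited label and 16.5% under the Pi-replete label. H3 (RHTO_04185), H4 and the ribonucleotide reductase subunit held 57.3% and 46.9% of the summed counts of the 41 genes. Without the histones the sum was 16137 and 6022 counts, 2.57-fold higher under the Pi-limited label (2.49 to 2.64). The ribonucleotide reductase subunit, with 3917 and 591 counts, is still in that sum. By the authors' filter each higher gene was at least 2-fold higher, so the size of these sums partly follows from that filter. In the authors' deposited table the largest FDR of the 41 genes was 0.000445, from a test that compares these 2 libraries and not the conditions.

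Genes of the same processes that the search words missed were looked up in the KEGG and best-hit descriptions with 5 further lists, which found 27 listed genes. Of these, 18 were higher and 9 lower under the Pi-limited label, beside 58.3% of all listed genes higher. After median centring 14 of the 27 were above 0, near the even split that this centring gives all listed genes by construction. Their median log2 ratio was 1.10, beside 1.10 over all listed genes.

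The list of other repair and topology genes held 9 higher and 2 lower genes, and of the higher ones a TDG/mug-type glycosylase (RHTO_03753), the small primase subunit and a telomere length regulator (RHTO_06617) turned negative with median centring. AP endonuclease 1 (RHTO_01682), which cuts DNA at lost bases, had 67 and 18 counts and was 3.56-fold higher (2.09 to 6.37). Flap endonuclease 1 (RHTO_07466), which processes Okazaki fragments, had 412 and 134 counts and was 2.94-fold higher (2.42 to 3.60). Chosen after their values were seen, the large and small primase subunits (RHTO_07979 and RHTO_00690), partners of DNA polymerase alpha, were 2.69-fold (2.27 to 3.21) and 2.07-fold (1.73 to 2.47) higher, the latter turning to -0.05 with median centring. Both lower genes, RHTO_04906 and RHTO_05588, carry RNA exonuclease names in KEGG, RHTO_05588 beside a phospholipase D, and were 3.72-fold (3.35 to 4.13) and 2.44-fold (2.07 to 2.89) higher under the Pi-replete label.

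The chromatin assembly list held only the histone chaperone ASF1 (RHTO_03743), which had 447 and 199 counts and was 2.15-fold higher under the Pi-limited label (1.82 to 2.55). The DNA precursor list held only a putative dCMP deaminase (RHTO_01919), named after its values were seen, with 3 and 19 counts. Its ratio was 6.62-fold in favour of the library labelled Pi-replete (1.95 to 34.9), which rests on few counts.

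Of the 8 genes in the spindle, cytokinesis and checkpoint list, 5 were higher and 3 lower, with 1 of the higher, a dedicator of cytokinesis (RHTO_08108), turning negative with median centring. Beta-tubulin (RHTO_04662), which builds microtubules, had 1685 and 675 counts and was 2.39-fold higher (2.18 to 2.62), and a gamma-tubulin complex protein (RHTO_01393) had 528 and 216 counts and was 2.34-fold higher (1.99 to 2.75). A pair of genes with the same best hit, a putative tubulin binding protein, went the other way: RHTO_00834 had 72 and 1924 counts and RHTO_00693 had 122 and 1296, 27.9-fold (22.1 to 35.8) and 11.1-fold (9.21 to 13.5) higher under the Pi-replete label. Whether these genes share reads was not tested.

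The search words matched 7 genes in the best hit that they did not match in the KEGG description, 4 higher and 3 lower with no change of sign by median centring, and 1 of them (RHTO_00097) is also in the spindle list. An ATP-dependent DNA helicase (RHTO_02787) had 71 and 5 counts and was 13.6-fold higher under the Pi-limited label (5.56 to 43.2). A gene with the cohesin subunit psm1 as best hit (RHTO_00728), part of the ring that holds sister chromatids together, had 157 and 35 counts and was 4.29-fold higher (2.96 to 6.39). Among the lower genes, RHTO_06762 is a gamma-glutamyltranspeptidase that matched only through the word condensing (159 and 858 counts), and RHTO_08035 is a cyclin binding protein (409 and 1147 counts). They were 5.64-fold (4.75 to 6.72) and 2.93-fold (2.61 to 3.29) higher under the Pi-replete label.

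**Figure D4:**
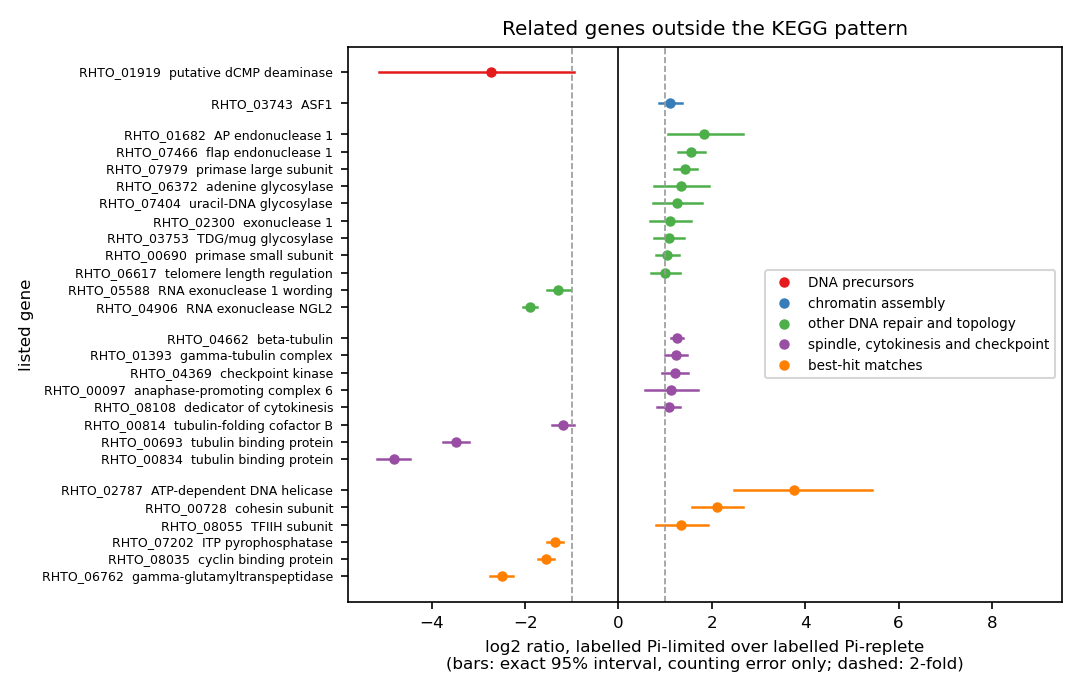
Log2 ratio, labelled Pi-limited over labelled Pi-replete (horizontal axis), of the 27 listed genes that the KEGG search words missed, coloured by list, with exact 95% intervals that cover counting error only and dashed lines at 2-fold. The 18 higher genes lie right of the 2-fold line and the 9 lower ones left of it, with both tubulin binding proteins farthest left. A shift of -1.10 by median centring leaves 14 genes above 0, near the even split of all listed genes that it makes by construction.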

How the data were processed

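The authors deposited 1 table that, per the file headers, holds gene lengths, a raw count and an RPKM per library, a log2 ratio, a p-value with its FDR, and KEGG, Gene Ontology and best BLAST descriptions. The submitters' processing notes name Cufflinks and DESeq, without a version or a role for either. The sources used here give no aligner, no genome build and no word on strand in counting. Library totals were recovered as count divided by length and RPKM. Ratios were recomputed from RPKM with no pseudocount as labelled Pi-limited over labelled Pi-replete. Exact 95% intervals of folds come from the conditional binomial of both counts (Clopper-Pearson, scipy 1.17.1) and cover counting error only. They were tested on simulated counts without the authors' filter, so their coverage for genes kept by that filter was not tested. No molecular identifiers are mentioned. No gene here had 0 counts, so no floor was needed. With 1 library per condition no test was made.

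Of the 41 genes, 40 are named, and 1 is counted in the totals but not reported here by name. Of related genes, the rule names 2 per list and direction with the largest ratio and at least 50 counts. The genes, roles and lists were chosen with earlier results of these data known, and roles were assigned by hand from the descriptions. Deposited lengths divide by 3 in 99.4% of the table and were read as coding lengths. The exceptions among the 41 genes are H4 (311 bases), the H3 gene RHTO_01989 (143) and the polymerase epsilon gene RHTO_01448 (6659). For gene order only, the 41 identifiers were looked up, all with a match, in the RefSeq genes of assembly RHOziaDV1.0 (strain NP11). Alternatives were median centring, equal totals of listed genes, TMM factors (edgeR 4.0.16), a pseudocount, count, FDR and fold thresholds, and other ways of matching descriptions.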

Additional observations from a re-analysis of the deposited data

How the results depend on the processing

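Median centring kept 4 genes lower. It left 4 of the 37 higher genes at least 2-fold higher and a median log2 ratio of 0.21, and by role it left 0 genes of origin licensing, 0 of the polymerases and clamp, 0 of repair and 0 of condensin and kinetochore, with 1 each of the histones, the cyclin group and the genes matched by wording. The log2 ratios of PCNA (-0.0776), DNA2 (-0.0198), RAD54 (-0.0964), NNF1 (-0.0460) and the cyclin RHTO_02011 (-0.0546) turned negative, by construction, as they lay under the shift. TMM factors left 26 of the 37 higher genes at least 2-fold higher, beside 631 of the 1402 listed genes, and gave a median of 1.13. These 26 genes included 3 licensing, 2 polymerase and clamp, and 2 condensin and kinetochore genes. Equal totals gave a median of 1.62 and 2 lower genes, 1 in repair and 1 matched by wording, beside 436 of the 1402 listed genes at least 2-fold lower. The number lower was also 2 with at least 100 counts, with best hits that name no other function, and without genes matched by wording, and was 7 when best hits were searched too. A 4-fold threshold gave 5 higher, 1 lower and a median of 2.32. A pseudocount of 1 count, a minimum of 50 counts and an FDR of at most 1e-10 kept the counts of higher and lower genes within 1.5 times. The promoter motif search was not run, as no promoter sequences were used here. No paired analysis was possible because each condition has 1 library. Precision is limited by counts below about 100, and by the missing replicates.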

Other observations

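The search words did not use the Gene Ontology terms in the table. The 12 listed genes with a term of DNA metabolism, DNA replication, DNA repair or nucleosome organization were all higher under the Pi-limited label, beside 58.3% of all listed genes. Of these 12, 9 are among the 41 genes, so this is not a separate set. After median centring 2 of the 12, PCNA and a helicase described as Bloom syndrome protein (RHTO_07400), were below 0. Only 246 of the 1402 listed genes and 19 of the 41 carry any Gene Ontology term.

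Some chromosome genes outside every list were noticed after their values were seen. GINS complex subunit 3 (RHTO_04695), which joins the helicase with CDC45, had 46 and 16 counts and was 2.75-fold higher under the Pi-limited label (1.53 to 5.21). Histone acetyltransferase 1 (RHTO_02965), known in S. cerevisiae to acetylate new H4, had 416 and 151 counts and was 2.64-fold higher (2.18 to 3.20), and RHTO_07400 was 2.02-fold higher (1.65 to 2.49). A gene described as Chk1 and also under carbon catabolite control (RHTO_07481), with a related kinase as best hit, had 12 and 40 counts and was 3.48-fold higher under the Pi-replete label (1.79 to 7.29).

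In the reference gene order the 41 genes have 82 flanking genes, of which 23 (28.0%) are listed, beside 21.1% for all listed genes. Of those 23, 16 (69.6%) have the direction of their neighbour, beside 65.8% for all listed genes, a share near that background. RAD52 and RAD54 are adjacent, as are H4 and H3 (RHTO_04185), and on the other side of H4 lies RHTO_04183, a peptidylprolyl isomerase in KEGG with a protein phosphatase 2A activator as best hit, with 298 and 48 counts and 5.94-fold higher under the Pi-limited label (4.37 to 8.24). The ribonucleotide reductase gene lies between RHTO_01069 (5 and 107 counts) and RHTO_01071 (31 and 130 counts), both higher under the Pi-replete label. No annotated span of the 41 genes overlaps a flanking gene.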
